A study of Homo sapiens with 4 samples.

Results

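The genes described here are 6 genes of the EGF (epidermal growth factor) family of ligands, TGFA, HBEGF, AREG, EREG, BTC and NRG1, together with ADAM17, the gene of the protease that releases most of these ligands from the cell surface. They were taken by gene name, and all 7 were found among the 27694 genes of the expression table. The table came from RNA-seq of LN229, an established human glioblastoma cell line grown with fetal bovine serum. The UM-164 group had 2 libraries of cells given 100 nM UM-164, an inhibitor of the kinases c-Src and p38 MAPK, for 24 h, and the vehicle group had 2 libraries of cells given DMSO for the same time. All 4 libraries came from this single cell line, and nothing in the labels or methods tells if each was a culture of its own. The p-values therefore speak only of the spread among these libraries, and that spread may be technical. Expression is given as FPKM, in which fragments are divided by transcript length and library size, so that levels of different genes can be set side by side.

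EGF family ligands are made as membrane proteins that carry an EGF-like domain outside the cell. ADAM17 and related proteases cut them off the membrane, and the freed ligand binds receptors of the ERBB family. TGF-alpha, amphiregulin, epiregulin, betacellulin and HB-EGF (the products of TGFA, AREG, EREG, BTC and HBEGF) bind EGFR, betacellulin, epiregulin and HB-EGF also bind ERBB4, and neuregulins such as the product of NRG1 bind ERBB3 and ERBB4. ERBB2 binds no known ligand and acts as the partner of the other receptors. The receptors signal through RAS and ERK and through PI3K, Src is among the kinases that pass their signal on, and EGFR is a well-known driver of glioblastoma.

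LN229 cells had the glioma and neural genes SOX2, NES and S100B at 22.5 FPKM or more in every library. GFAP, the astrocyte filament gene, was at 0.12 FPKM or less in all 4. Of 4 leukocyte genes, CD68 had 20.2 and 17.1 FPKM in the UM-164 libraries and 16.7 and 18.4 FPKM in the vehicle libraries, and PTPRC, AIF1 and CD3E were at 0.09 FPKM or less. None of the 3 endothelial genes averaged 1 FPKM. Of 4 epithelial genes, KRT18 averaged 26.6 ± 9.11 FPKM in UM-164 and 24.5 ± 1.26 FPKM in vehicle (SD, n = 2 each), KRT8 had 7.34 and 6.75 FPKM in UM-164 and 5.09 and 4.96 FPKM in vehicle, and EPCAM and CDH1 were at 0.26 FPKM or less. Protein-coding genes took 83.4% and 81.7% of the summed FPKM in the UM-164 libraries, against 89.7% and 90.1% in the vehicle libraries. Read counts were not given, so the depth behind a value is known only roughly: among 8805 genes with 1 listed transcript, the smallest common step of FPKM times length, which may be 1 fragment, was at most 1.11 times larger in one library than in another.

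On the GRCh38 genome (GENCODE release 29) EREG, AREG and BTC are neighbours. EREG is on chromosome 4 from 74365143 to 74388751 and AREG from 74445134 to 74455009, 56.4 kb apart, and BTC follows on the opposite strand from 74744759 to 74794686. EPGN, the gene of the further EGFR ligand epigen, starts this row of genes at 74308473, so the 4 genes span 486 kb. TGFA is on chromosome 2 from 70447280 to 70554193, ADAM17 on chromosome 2 from 9488486 to 9556732 and HBEGF on chromosome 5 from 140332843 to 140346631. No exon base of the 6 ligand genes is shared with another annotated gene. ADAM17 shares 12.3% of its exon bases with IAH1 on the opposite strand, and since it is not given whether strand was used in counting, reads of these 2 genes could not be told apart there.

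The start regions of AREG, EREG and ADAM17 are shown because they held a motif of factors that act in the pathways studied here, TEAD (the DNA-binding partner of YAP; GGAATG), AP-1 (TGANTCA) or CREB (the CRE motif TGACGTCA). Each runs from 250 bases before to 50 after a transcription start in RefSeq (GRCh38.p14), written on the strand of the gene, with the motif in capitals. NRG1 was not searched, and of the 7 windows of the other 6 genes 3 held a motif. The AREG window is chr4:74444886-74445185 on the plus strand, with the CRE motif 65 bases before the start. The EREG window is chr4:74364895-74365194 on the plus strand, and the ADAM17 window is chr2:9555781-9556080 on the minus strand. Both hold GGAATG on the other strand, where it reads CATTCC, its first base here being 175 and 227 bases before the start in EREG and ADAM17.
AREG: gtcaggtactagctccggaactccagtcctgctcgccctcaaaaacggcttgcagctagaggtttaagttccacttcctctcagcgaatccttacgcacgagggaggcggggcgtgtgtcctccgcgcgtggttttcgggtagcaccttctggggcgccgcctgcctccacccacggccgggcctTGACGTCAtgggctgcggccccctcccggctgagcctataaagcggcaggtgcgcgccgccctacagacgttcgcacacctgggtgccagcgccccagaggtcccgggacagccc
EREG: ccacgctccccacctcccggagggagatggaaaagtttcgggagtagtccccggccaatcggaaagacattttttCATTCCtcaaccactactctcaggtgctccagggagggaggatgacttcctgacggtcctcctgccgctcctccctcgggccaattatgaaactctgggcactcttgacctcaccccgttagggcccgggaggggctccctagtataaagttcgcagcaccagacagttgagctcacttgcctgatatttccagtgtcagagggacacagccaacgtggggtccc
ADAM17: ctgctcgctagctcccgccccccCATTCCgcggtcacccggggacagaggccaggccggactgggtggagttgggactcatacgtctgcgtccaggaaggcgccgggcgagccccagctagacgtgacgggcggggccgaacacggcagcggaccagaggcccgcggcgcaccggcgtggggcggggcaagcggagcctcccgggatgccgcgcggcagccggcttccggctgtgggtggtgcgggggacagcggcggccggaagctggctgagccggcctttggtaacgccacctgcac
On either strand, CRE was in 1.85%, GGAATG in 14.0% and TGANTCA in 7.71% of 35116 windows of the same length. CRE overlaps none of the other matches in the windows shown. The windows of TGFA, HBEGF and BTC held none of the letters searched. These matches describe the sequence and are not evidence of binding.

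TGFA was by far the main EGF family ligand of these cells at the RNA level, and it stayed so in both groups. It took 88.5% and 89.8% of the summed FPKM of the 10 EGF family ligand genes in the table in the UM-164 libraries, against 90.6% and 90.6% in the vehicle libraries. The summed FPKM of the 10 genes was 46.4 and 40.7 in the UM-164 libraries and 52.9 and 61.0 in the vehicle libraries, without overlap between the groups (exact permutation test, two-sided, p = 0.33, which is the smallest p that 2 libraries against 2 allow). In bulk RNA, fewer cells with a transcript and less of it per cell cannot be told apart.

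In the UM-164 libraries the order of mean FPKM was TGFA, ADAM17, HBEGF, AREG, BTC, NRG1 and EREG. The order in the vehicle libraries was TGFA, HBEGF, ADAM17, NRG1, BTC, AREG and EREG. Neighbours whose libraries overlapped were BTC and NRG1 in the UM-164 group, and HBEGF and ADAM17 as well as AREG and EREG in the vehicle group. AREG and NRG1 thus held other places in the order in the 2 groups, AREG at place 4 in UM-164 and 6 in vehicle, NRG1 at place 6 in UM-164 and 4 in vehicle.

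**Figure D1:**
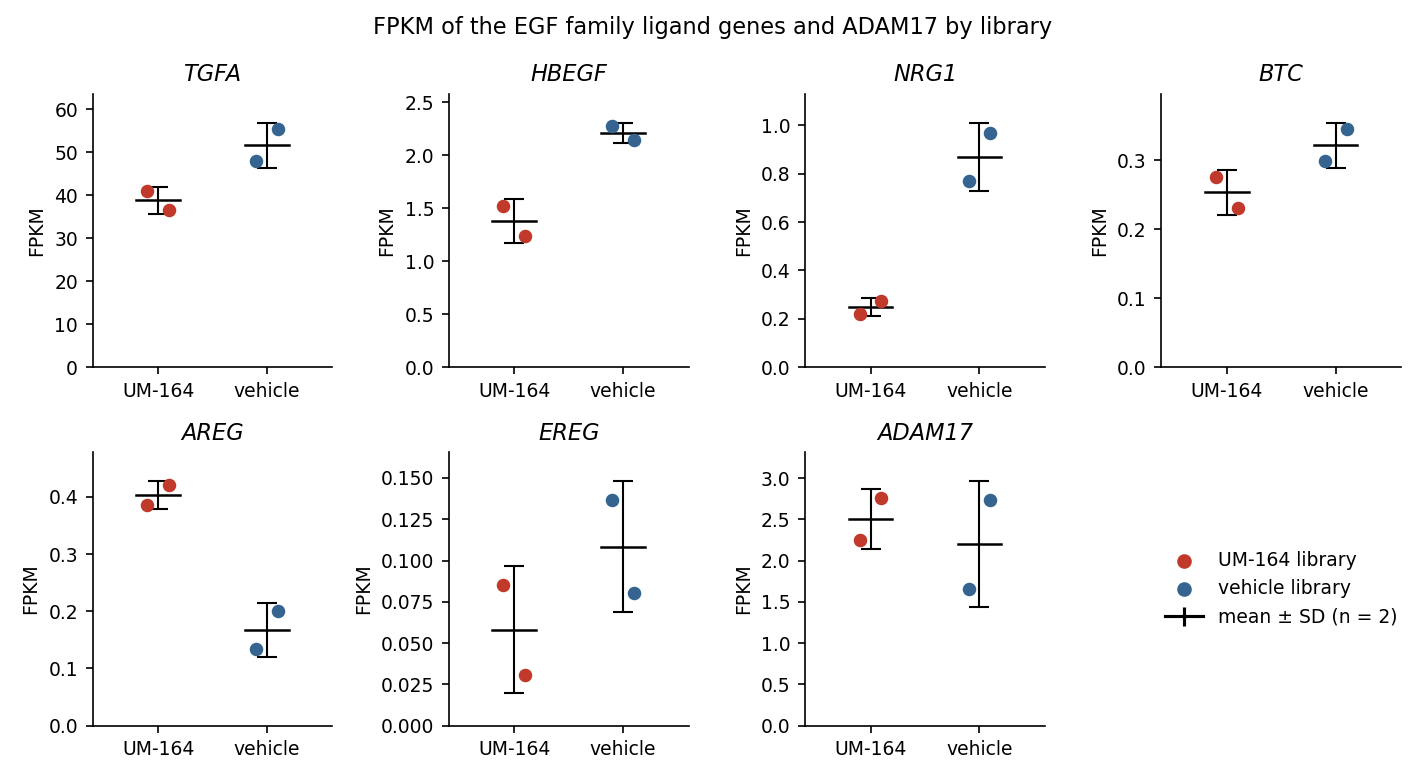
FPKM of each of the 7 genes (vertical axes, each from 0) in the 2 UM-164 and the 2 vehicle libraries (points), with mean and SD. TGFA, HBEGF, NRG1 and BTC have both UM-164 libraries below both vehicle libraries, AREG has both above, and EREG and ADAM17 overlap.

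TGFA encodes TGF-alpha, an EGFR ligand that many gliomas and carcinomas make for themselves. It had 41.1 and 36.6 FPKM in the UM-164 libraries, against 47.9 and 55.3 FPKM in the vehicle libraries. Both UM-164 libraries were below both vehicle libraries. The means were 38.8 ± 3.17 FPKM in UM-164 and 51.6 ± 5.25 FPKM in vehicle (SD, n = 2 each), a ratio of 0.752. On the log2(FPKM + 0.5) scale used for all fold changes here, which understates the change of low genes, the difference was -0.40 (standard error 0.11, 95% interval -0.70 to -0.11, unadjusted p = 0.0159 and adjusted p = 0.155 from limma), so TGFA did not pass the threshold of 0.05 after Benjamini-Hochberg adjustment over all 11516 genes tested. A gene was tested if its FPKM averaged 1 or more across the libraries.

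HBEGF encodes heparin-binding EGF-like growth factor, whose membrane form is also the diphtheria toxin receptor. It was found at 1.52 and 1.23 FPKM in the UM-164 libraries and at 2.28 and 2.14 FPKM in the vehicle libraries. These groups did not overlap either, and the gap between them (1.52 against 2.14) was larger than the distance between libraries within a group. The mean was 1.38 ± 0.204 FPKM in UM-164 and 2.21 ± 0.0942 FPKM in vehicle (SD, n = 2 each). The log2 fold change was -0.53 (standard error 0.16, 95% interval -0.95 to -0.12, unadjusted p = 0.0214 and adjusted p = 0.178 from limma), which did not pass.

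NRG1, the gene of neuregulin-1, lies on chromosome 8 from 31639386 to 32767959 (GRCh38). It had the largest ratio between the groups among the 6 ligand genes, at a low level. Its 2 UM-164 libraries had 0.221 and 0.275 FPKM, against 0.769 and 0.969 FPKM in the vehicle libraries. The highest UM-164 value was thus well under the lowest vehicle value. The mean in UM-164 was 0.285 times that in vehicle, with 0.248 ± 0.0378 FPKM in UM-164 and 0.869 ± 0.141 FPKM in vehicle (SD, n = 2 each). The table lists transcripts of NRG1 from 563 to 5931 bases, so in the steps described for low values its levels could correspond to 2.55 to 26.9 and 3.29 to 34.6 steps in UM-164 and to 9.84 to 104 and 11.6 to 122 steps in vehicle, a range too wide to say how many fragments were seen. With a mean FPKM under 1 it was not among the genes tested. In the fit with no filter on low values, over all 27694 genes, the log2 fold change was -0.87 (standard error 0.18, 95% interval -1.37 to -0.37, unadjusted p = 0.00907 and adjusted p = 0.260 from limma). In that fit 0.0144% of all genes in either direction passed at an adjusted p under 0.05, 0.00361% lower and 0.0108% higher, and 6.11% were lower and 5.92% higher at an unadjusted p under 0.05. The size of the value depends on the number added before the logarithm: it was -1.48 when 0.1 was added and -0.58 when 1 was added.

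AREG, the gene of amphiregulin, was the only one of the 6 ligand genes with both UM-164 libraries above both vehicle libraries. It had 0.386 and 0.420 FPKM in the UM-164 libraries and 0.133 and 0.201 FPKM in the vehicle libraries. The ratio of the means was 2.41, from 0.403 ± 0.0244 FPKM in UM-164 and 0.167 ± 0.0476 FPKM in vehicle (SD, n = 2 each). If a step is 1 fragment, these values rest on few fragments. In the steps described for low values and with the lengths of its 2 listed transcripts, 763 and 1240 bases, the UM-164 values correspond to 6.04 to 9.81 and 6.81 to 11.1 steps, and the vehicle values to 2.31 to 3.75 and 3.25 to 5.28 steps. With no filter the log2 fold change was 0.44 (standard error 0.13, 95% interval 0.08 to 0.80, unadjusted p = 0.0279 and adjusted p = 0.344 from limma), and it was 0.92 with 0.1 added and 0.27 with 1 added.

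EREG and BTC, the genes of epiregulin and betacellulin, lie on both sides of AREG. Their log2 fold changes were below 0, but both 95% intervals hold 0, so no difference in direction from AREG can be stated. EREG had the lowest mean of the 7 genes in both groups, with 0.0853 and 0.0309 FPKM in the UM-164 libraries and 0.136 and 0.0805 FPKM in the vehicle libraries, which overlapped. With its listed transcripts of 598 to 4619 bases, these correspond to 1.05 to 8.09 and 0.393 to 3.03 steps in UM-164. In vehicle they correspond to 1.85 to 14.3 and 1.02 to 7.89 steps, again too wide a range to say how many fragments were seen. BTC had 0.276 and 0.230 FPKM in the UM-164 libraries, against 0.299 and 0.344 FPKM in the vehicle libraries. The BTC groups did not overlap, but the gap of the nearest libraries (0.276 against 0.299) was smaller than the distance within either group. The table lists 1 transcript of BTC, of 2816 bases, so its values correspond to 15.9 and 13.8 steps in UM-164 and to 19.1 and 20.6 steps in vehicle. With no filter the log2 fold change was -0.12 for EREG (95% interval -0.38 to 0.13, adjusted p = 0.670 from limma) and -0.13 for BTC (95% interval -0.48 to 0.23, adjusted p = 0.707 from limma). Without 1 library these ran from -0.20 to -0.05 for EREG and from -0.17 to -0.08 for BTC. The ratio of AREG to EREG was 4.52 and 13.6 in the UM-164 libraries and 0.977 and 2.49 in the vehicle libraries.

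ADAM17, also known as TACE, is the protease that releases TGF-alpha, amphiregulin, epiregulin and HB-EGF. Its libraries had 2.25 and 2.76 FPKM in UM-164 and 1.66 and 2.74 FPKM in vehicle. The vehicle libraries differed from each other more than the groups did, and the groups overlapped. The log2 fold change was 0.18 (standard error 0.24, 95% interval -0.44 to 0.79, adjusted p = 0.717 from limma), an interval that holds both a modest fall and a rise by more than 1.5 times. Without vehicle replicate 1, the library with the lowest value, the log2 fold change was -0.11, so no direction can be given.

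At an adjusted p under 0.05 from limma none of the 3 genes tested (TGFA, HBEGF and ADAM17) was called in either direction, against 1.31% of all 11516 genes tested (0.860% lower and 0.452% higher) and 0.764% that also differed by 1 or more on the log2 scale. At an unadjusted p under 0.05, 2 of the 3 were lower and 0 higher, against 10.6% lower, 9.47% higher and 20.1% in either direction among all genes tested. Both UM-164 libraries were below both vehicle libraries in these 2 genes, TGFA and HBEGF, against 25.5% of genes tested (27.7% had both above). Of the 4 genes with a mean FPKM under 1, NRG1 and BTC had both UM-164 libraries below both vehicle libraries and AREG had both above. Among all genes at such low levels 11.9% were below and 16.9% above in this way. With fewer than 5 genes in each class, these counts say little beyond the single values. The fold changes of the 7 genes are drawn beside those of the remaining ligands and of the receptors.

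**Figure D2:**
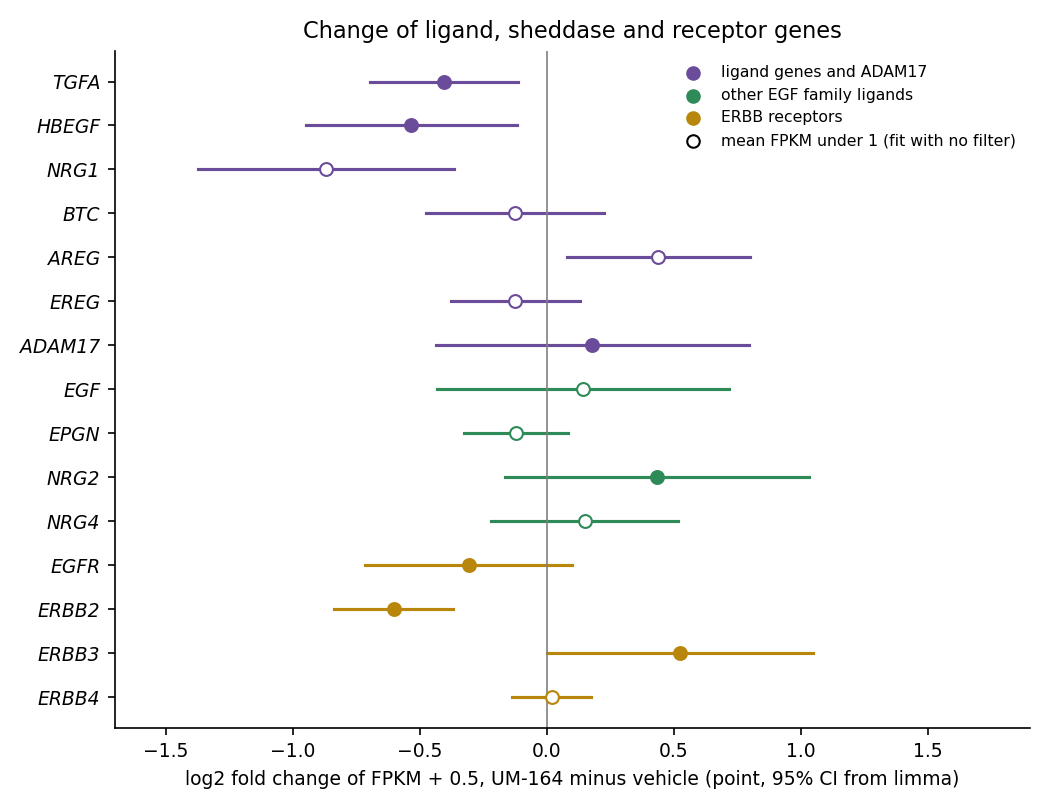
Log2 fold change of FPKM + 0.5, UM-164 minus vehicle (horizontal axis), with the 95% interval from limma, for the 6 ligand genes and ADAM17, the other 4 ligand genes in the table and the 4 ERBB receptors. Filled points were tested and open points have a mean FPKM under 1 and come from the fit with no filter. The intervals of TGFA, HBEGF, NRG1 and ERBB2 lie below 0 and that of AREG lies above 0, but no gene shown passed at an adjusted p under 0.05.

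Of the other EGF family ligands, only the neuregulin gene NRG2 had a mean FPKM of at least 1. NRG2 had 2.12 and 1.41 FPKM in the UM-164 libraries and 0.980 and 1.35 FPKM in the vehicle libraries, without overlap but with a narrow gap. Its log2 fold change was 0.43 (standard error 0.23, adjusted p = 0.372 from limma), and it did not pass. The value was 0.20 without UM-164 replicate 1, 0.66 without UM-164 replicate 2 and 0.27 without vehicle replicate 1. The ratio of NRG2 to NRG1 was 9.60 and 5.12 in the UM-164 libraries, against 1.27 and 1.40 in the vehicle libraries. NRG2 was thus the most abundant neuregulin gene in all 4 libraries, and the gap to NRG1 was wider in both UM-164 libraries. EGF itself had 0.634 and 0.389 FPKM in the UM-164 libraries and 0.364 and 0.459 FPKM in the vehicle libraries, and NRG4 had 0.0635 and 0.181 FPKM in UM-164 and 0.0256 and 0.0934 FPKM in vehicle. Both overlapped between the groups. EPGN was listed at 0 in both UM-164 libraries and at 0.0133 and 0.0776 FPKM in the vehicle libraries, at most 1.97 steps, so no change could be detected at this depth.

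The log2 fold changes of the 3 receptors tested did not share a sign, but only the 95% interval of ERBB2 excluded 0. ERBB2 had 10.3 and 10.2 FPKM in the UM-164 libraries and 15.7 and 15.9 FPKM in the vehicle libraries. Its difference was -0.60 on the log2 scale (standard error 0.09, limma adjusted p = 0.0592), just outside the threshold. Of the alternatives, ERBB2 passed only when the test was limited to genes averaging 5 FPKM or more (limma adjusted p = 0.0375). The limma adjusted p was 0.184 with no filter and 0.105 with no trend of the variance. ERBB3, the receptor that neuregulins bind, had 21.8 and 22.3 FPKM in the UM-164 libraries and 12.3 and 18.7 FPKM in the vehicle libraries (log2 fold change 0.52, standard error 0.20, adjusted p = 0.248 from limma). The ERBB3 value was 0.23 without vehicle replicate 1 and 0.82 without vehicle replicate 2. EGFR, the receptor of TGF-alpha, had 3.03 and 2.95 FPKM in the UM-164 libraries and 3.36 and 4.34 FPKM in the vehicle libraries (log2 fold change -0.31, standard error 0.16, adjusted p = 0.353 from limma), and its value was -0.47 without vehicle replicate 1 and -0.14 without vehicle replicate 2. ERBB4 was at 0.0527 FPKM or less in every library. ERBB3 was thus above EGFR in each library, with an FPKM ratio of 7.19 and 7.56 in UM-164 and of 3.66 and 4.32 in vehicle. The ratio of ERBB3 to ERBB2 was 2.10 and 2.20 in UM-164, against 0.781 and 1.18 in vehicle, and did not overlap (exact permutation test, two-sided, p = 0.33, the smallest possible).

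Of 13 tested genes for other sheddases and their regulators, limma called none at the adjusted threshold of 0.05, and 2 were lower and 0 higher at an unadjusted p under 0.05, where 10.6% of all genes tested were lower and 9.47% higher. The median log2 fold change was -0.02, beside 0.01 over all genes tested. The lower 2 were TIMP3, the inhibitor of ADAM17, and ADAM19. TIMP3 had 221.7 and 217 FPKM in the UM-164 libraries, against 308 and 330 FPKM in the vehicle libraries (log2 fold change -0.54, standard error 0.08, adjusted p = 0.0586 from limma, and 0.0445 among genes averaging 5 FPKM or more). ADAM10, the sheddase of EGF and betacellulin, had 4.34 and 4.29 FPKM in UM-164 and 3.10 and 3.85 FPKM in vehicle, a log2 difference of 0.28 (limma adjusted p = 0.354) that was 0.14 without vehicle replicate 1. FRMD8, a partner of the iRhoms that carry ADAM17 to the cell surface, differed by -0.19 on the log2 scale (limma adjusted p = 0.350).

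Of 11 tested inhibitors of ERBB receptors none was called by limma, and 1 was higher and 2 lower at an unadjusted p under 0.05 (9.47% and 10.6% of all genes tested), with a median log2 fold change of -0.12. These were SOCS3 (log2 fold change 0.26), the phosphatase gene PTPN1 (-0.24) and ERRFI1 (-0.32), whose product MIG6 blocks the EGFR kinase. STUB1, a ubiquitin ligase gene, followed at -0.19. Their adjusted p was 0.236, 0.216, 0.239 and 0.295 from limma.

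Of 21 tested signal transducers below the receptors, limma called GAB2 higher and none lower (0.452% and 0.860% of all genes tested), at a median log2 fold change of -0.01. At an unadjusted p under 0.05, 1 was higher and 3 were lower (9.47% and 10.6% of all genes tested). GAB2, a docking protein that links receptors to PI3K and to the phosphatase SHP2, had 11.3 and 12.1 FPKM in the UM-164 libraries and 5.86 and 6.53 FPKM in the vehicle libraries. Its log2 fold change was 0.86 (standard error 0.11, adjusted p = 0.0453 from limma). Leaving out 1 library leaves a group of 1, whose spread is then taken to be that of the other group. The log2 fold change of GAB2 stayed between 0.79 and 0.94 in these fits, and the call was lost in each of them, at an adjusted p of 0.106 without UM-164 replicate 1, 0.169 without UM-164 replicate 2, 0.132 without vehicle replicate 1 and 0.121 without vehicle replicate 2 from limma, and also with no trend of the variance (0.0813), with no filter (0.188) and after rescaling of protein-coding genes (0.0524). MAP2K1 (the MEK1 gene) and HRAS differed by -0.56 and -0.37 (log2) without passing (limma adjusted p = 0.0601 and 0.210). MAP2K1 passed among genes averaging 5 FPKM or more (limma adjusted p = 0.0407) but, like every gene of the lists, was not called lower with no filter. HRAS was at -0.22 without vehicle replicate 1.

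Limma called 4 of 16 tested ERK output genes lower and none higher (FOSL1, EPHA2, EGR1 and CCND1, with log2 fold changes of -1.99, -1.34, -1.27 and -0.997). CCND1 was also measured in the paper as a potential YAP target. Among 16 tested growth factors of other families LIF was lower, at -1.32, and none was higher. Over all genes tested 0.860% were called lower and 0.452% higher. At an unadjusted p under 0.05, 6 ERK outputs were lower and 2 higher, and 6 other growth factors were lower and 0 higher. Among all genes tested these shares were 10.6% lower and 9.47% higher. The 2 higher ERK outputs were SPRY4 and ETV4, with log2 fold changes of 0.62 and 0.36. SPRY4 was just outside the adjusted threshold and ETV4 far from it (adjusted p = 0.0538 and 0.210 from limma), so the ERK outputs did not all fall. In each of the 2 lists 10 genes had a log2 fold change below 0 and 6 above, beside 5540 below and 5976 above among all genes tested. The median log2 fold change was -0.16 for the ERK outputs and -0.18 for the other growth factors. VEGFC and VEGFA had log2 fold changes of -0.83 and -0.85 and PDGFA of -0.36, and they did not pass (adjusted p = 0.0637, 0.0854 and 0.164 from limma). TGFA and HBEGF, at -0.40 and -0.53, had smaller fold changes than LIF, VEGFC and VEGFA and larger ones than PDGFA. These growth factors were named for their small p, and the median of their list, -0.18, was smaller in size than the values of TGFA and HBEGF. The differences between genes were not tested. All 5 lower genes lost the call without vehicle replicate 1, without vehicle replicate 2 and with no filter. CCND1 also lost it without either of the UM-164 libraries, with quantile normalization and with no trend, and EGR1 with no trend. Of 56 tested members of the ErbB signaling pathway as the table annotates it from KEGG, a list added after the results were known, JUN was lower and none was higher, and the median log2 fold change was -0.05. In that list 13 genes were lower and 1 higher at an unadjusted p under 0.05 (10.6% and 9.47% of all genes tested). Of its genes 33 had a log2 fold change below 0 and 23 above, where all genes tested had 5540 below and 5976 above. Without vehicle replicate 1, and also without vehicle replicate 2, limma called none of the 11516 genes lower at the adjusted threshold, so the call of JUN was lost as well.

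**Figure D3:**
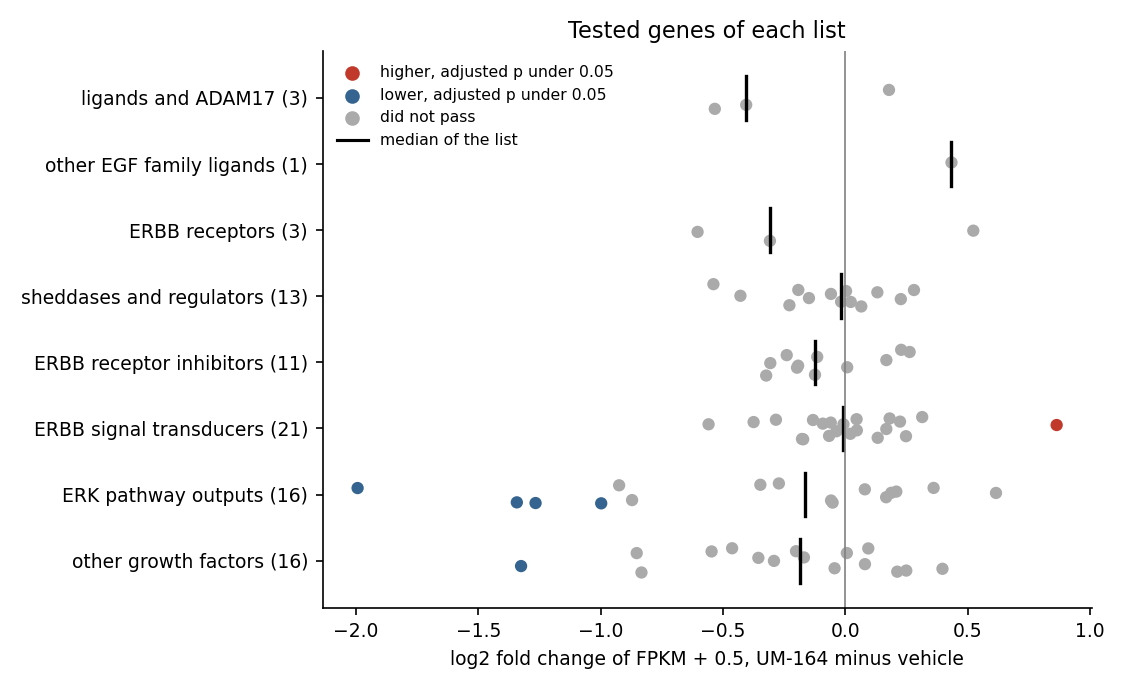
Log2 fold change of FPKM + 0.5, UM-164 minus vehicle (horizontal axis), of each tested gene (points) in the 8 lists (rows, number tested in parentheses), with the list median (bar). The 5 genes lower at an adjusted p under 0.05 are 4 ERK outputs and LIF, the 1 gene higher is GAB2, and the ligands and ADAM17 hold none.

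The genes with the most similar pattern were sought by the distance between log2(FPKM + 0.5) profiles over the 4 libraries, each centred on its own mean, among the protein-coding genes tested. For TGFA these were BCL10, DIAPH3 and LATS2, at distances of 0.00836, 0.0404 and 0.0456. For HBEGF they were REEP4, SAMD1 and PML, at 0.0226, 0.0312 and 0.0318. For ADAM17 they were ZNF300, H2BC4 and TMEM50B, at 0.0309, 0.0446 and 0.0518. The 3 genes near ADAM17 had their lowest value in vehicle replicate 1, as it did, which follows from how they were chosen. ZNF300, for example, had 2.20 and 2.63 FPKM in UM-164 and 1.58 and 2.67 FPKM in vehicle. None of the 9 genes passed the adjusted threshold in limma. Since they were chosen for profiles like those of genes that did not pass, this is not a separate result. With 4 libraries many genes lie close to any profile.

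The fold changes of the 7 genes were recomputed with other pseudocounts, scalings and fits and without each library. With protein-coding genes rescaled to 1 sum, which takes out their lower share in the UM-164 libraries, the log2 fold change was -0.43 for TGFA, -0.55 for HBEGF, -0.88 for NRG1 and 0.43 for AREG. Without 1 library it ran from -0.51 to -0.30 for TGFA, from -0.64 to -0.42 for HBEGF, from -0.98 to -0.76 for NRG1 and from 0.37 to 0.51 for AREG. None of these changed its direction.

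**Figure D4:**
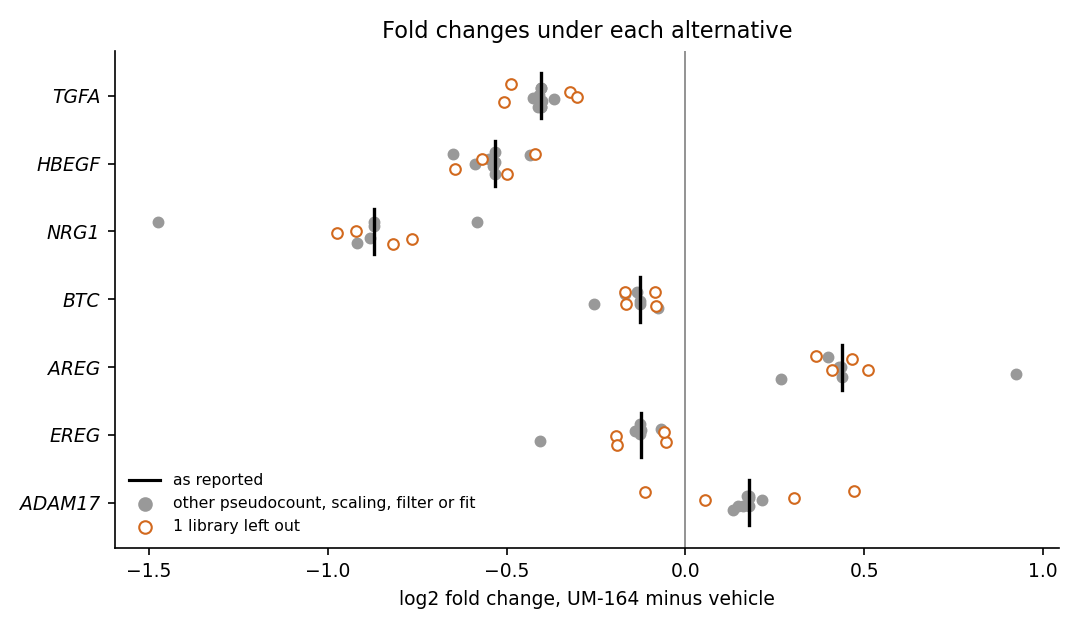
Log2 fold change, UM-164 minus vehicle (horizontal axis), of each of the 7 genes as reported (bar), under another pseudocount, scaling, filter or fit (grey points) and without 1 library (open points). ADAM17 is the only gene whose points lie on both sides of 0, and the grey points farthest from the bar of NRG1 and AREG, at -1.48 and 0.92, are those with 0.1 added before the logarithm.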

How the data were processed

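The RNA-seq of LN229 cells was taken up from the FPKM values that the authors deposited (27694 genes, 4 libraries). For the reads, cutadapt 1.9, FastQC and GRCh38 stand in the submitters' processing notes and HISAT2 as the aligner in the series text. How FPKM was computed is not given in the sources used for this report. The table also holds the authors' fold change, its log2, p-value and q-value, which were not used. Since DESeq2, the paper's tool, needs counts, limma 3.58.1 (R 4.3.3) was run on log2(FPKM + 0.5) for 11516 genes averaging 1 FPKM or more, with a variance trend, two-sided, with Benjamini-Hochberg adjustment at 0.05. Low values lay at whole steps too loosely to recover reads (35.8% to 38.2% within 0.1 steps, 20% by chance). Named were the 7 genes, the other ligands and receptors, and in each further list the calls and up to 4 genes of smallest p. Also named were the 2 ERK outputs higher at an unadjusted p under 0.05 and the 3 nearest profiles of each tested gene. A gene under this rule is not reported here. The genes and lists were chosen with earlier results of these data known. As alternatives, 0.1 or 1 was added instead of 0.5, the filter was dropped or raised to 5, values were scaled by median ratios, by quantiles or to equal protein-coding sums, the trend was dropped, the replicate number was blocked and each library was left out. Tables were made in Python 3.11.15 (numpy 2.4.6, pandas 2.3.3, scipy 1.17.1).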

Additional observations from a re-analysis of the deposited data

How the results depend on the processing

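TGFA, HBEGF and ADAM17 were called under no alternative in which they were tested, all 3 in each but the one at a mean FPKM of at least 5, which tested TGFA alone. The other 4 genes were tested with no filter only, and none was called. ADAM17 reversed without vehicle replicate 1, its log2 fold change running over the left-out libraries from -0.11 to 0.47. The values that moved beyond the spread between libraries were the log2 differences of the low genes, which with 0.1 added were -1.48 for NRG1, 0.92 for AREG, -0.41 for EREG and -0.26 for BTC, and with 1 added -0.58 for NRG1 and 0.27 for AREG. Of the genes named for a profile like that of ADAM17, ZNF300 ran from -0.13 to 0.48, H2BC4 from -0.079 to 0.51 and TMEM50B from -0.16 to 0.42. Each reversed without vehicle replicate 1, which their choice by the ADAM17 profile brings with it. TMEM50B also reversed without UM-164 replicate 2 (-0.0032). The genes called in the lists beside the 7 genes, 5 lower and 1 higher, were 0 and 0 with no filter, 8 and 2 at a mean FPKM of at least 5 and 3 and 0 with no trend, and 0 were higher with protein-coding genes rescaled. Over all genes, 99 lower and 52 higher became 1 and 3 with no filter and 28 and 22 with no trend, and 158 were lower at a mean FPKM of at least 5. Leaving out 1 library gave 0 to 4 lower and 0 higher genes in the lists, and 0 to 70 lower and 4 to 45 higher genes over all. With the replicate number as a block 107 genes were lower and 57 higher, and none of the 3 genes tested was called. Same-numbered libraries did not deviate together (correlation of deviations -0.06 across 11516 genes), so the numbers were not taken as pairs. The causes of these changes were not tested. With no counts and 2 libraries a group, differences in AREG and EREG may rest on few fragments, whose number could not be recovered.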
